A study of Mus musculus with 10 samples.

Results

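The genes described here are 10 immediate-early genes of mouse liver: Fos, Fosb, Jun, Junb, Egr1, Atf3, Ier2, Dusp1, Klf6 and Klf10. They were taken by name, and every probe set annotated to one of them was kept, which gave 15 probe sets for all 10 genes, among 18193 genes and 45101 probe sets measured. Klf6 had 5 probe sets, Jun had 2 and each of the others had 1. The values come from whole liver of 10 male B6C3F1/Crl mice (offspring of C57BL/6 and C3H/He parents), 29 to 32 days old when they arrived and given 5 days to settle. One group of 5 had phenobarbital in its drinking water at 0.05% (w/v) for 28 days and was killed on the last day of dosing, and the other group of 5 is labelled control. Each animal has its own array, so the replicates are animals, and the values are log2 expression levels on which a difference of 1 is a doubling. All animals belong to this 1 hybrid strain and sex, and a single dose and time were measured.

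Immediate-early genes are switched on within minutes of a signal reaching a cell, without new protein being made, and their messages are short-lived. Growth factors, stress kinases and cyclic AMP act on serum response factor, on its ternary complex partners and on CREB, which already sit on these promoters. Fos and Jun proteins pair to form AP-1, Atf3 is a stress-induced relative that can pair with Jun, Egr1 and the Kruppel-like factors Klf6 and Klf10 are zinc finger proteins, Ier2 is a small nuclear protein, and Dusp1 is a phosphatase that removes phosphate from MAP kinases and so limits the signal. In liver the family is best known from regeneration after partial removal of the organ, where Jun is needed for hepatocytes to divide. Phenobarbital activates the constitutive androstane receptor in hepatocytes and, given for long, leads to liver tumours in rodents although it does not damage DNA.

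Promoters are shown for Fos, Jun and Atf3, members that stood high together in a single treated animal, and for Dusp1, which holds a complete cAMP response element. Egr1, which was also high in that animal, has no entry in the promoter table used here. Klf6 was high there too and has an entry, which is not printed. The windows run from 250 bases before to 50 bases after the RefSeq transcription start on build GRCm38.p6. Of the 10 members 7 have an entry in that table. Capitals mark matches, on either strand, to the cAMP response element TGACGTCA, its half-site TGACG, or TGACATCA, the AP-1-like jun1 element. The Fos window is chr12:85473640-85473939 on the plus strand, that of Jun chr4:95052173-95052472, that of Atf3 chr1:191183284-191183583 and that of Dusp1 chr17:26508423-26508722, the last 3 on the minus strand.
Fos: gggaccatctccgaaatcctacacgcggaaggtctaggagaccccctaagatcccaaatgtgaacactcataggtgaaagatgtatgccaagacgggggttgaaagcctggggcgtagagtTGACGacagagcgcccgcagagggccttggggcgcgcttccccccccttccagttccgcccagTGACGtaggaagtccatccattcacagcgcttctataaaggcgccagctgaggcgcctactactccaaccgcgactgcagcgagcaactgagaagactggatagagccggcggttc
Jun: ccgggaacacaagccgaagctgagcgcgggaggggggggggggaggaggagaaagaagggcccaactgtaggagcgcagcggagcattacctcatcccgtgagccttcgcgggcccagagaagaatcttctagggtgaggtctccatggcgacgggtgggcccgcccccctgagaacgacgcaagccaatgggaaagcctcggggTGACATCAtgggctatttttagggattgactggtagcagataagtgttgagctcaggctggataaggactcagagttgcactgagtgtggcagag
Atf3: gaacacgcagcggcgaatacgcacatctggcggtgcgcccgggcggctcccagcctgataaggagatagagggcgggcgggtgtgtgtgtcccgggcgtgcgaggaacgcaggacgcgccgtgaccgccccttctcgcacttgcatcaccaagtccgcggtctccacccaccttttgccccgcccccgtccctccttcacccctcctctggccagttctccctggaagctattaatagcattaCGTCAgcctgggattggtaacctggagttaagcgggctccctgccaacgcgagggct
Dusp1: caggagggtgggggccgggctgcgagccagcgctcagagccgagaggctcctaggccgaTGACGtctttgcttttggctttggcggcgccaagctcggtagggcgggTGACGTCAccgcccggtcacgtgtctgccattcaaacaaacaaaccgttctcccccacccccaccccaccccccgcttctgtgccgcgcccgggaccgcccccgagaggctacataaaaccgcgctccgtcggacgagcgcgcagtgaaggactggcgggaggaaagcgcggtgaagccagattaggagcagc

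Fos held 2 half-sites, at -129 to -125 and -66 to -62 from the start, and Atf3 held 1 on the opposite strand at -7 to -3. The jun1 element of Jun lay at -45 to -38, and the complete element of Dusp1 at -143 to -136, which includes 2 overlapping half-sites, with another half-site at -191 to -187. Of the members not printed, Fosb and Junb each held 1 half-site, Klf6 held the jun1 sequence, and Fosb also held the EGR site GCGNGGGCG. Over all 32851 promoter windows of the table, 20.8% held the half-site, 1.79% the complete element, 3.62% the jun1 sequence and 5.55% the EGR site. The AP-1 site TGANTCA (7.81% of windows) and the CArG box bound by serum response factor (CC, 6 of A or T, GG; 1.63%) were in none of the 7 member windows. These matches describe letters in a short window and are not binding sites shown by these data.

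The arrays differ in ways that run with the groups, and this bears on each comparison. The mean of the poly-A spike-ins, bacterial RNAs added before labelling, was 7.29 to 8.03 on control animals 1, 2, 3 and 5, 6.07 on control animal 4 and 5.51 to 6.23 on the treated arrays. Gapdh 3' minus 5' differences, a measure of RNA and labelling length, were -0.15 to -0.03 in controls and -0.28 to -0.21 in treated animals (exact two-sided permutation p = 0.00794, the smallest 5 against 5 can give, Benjamini-Hochberg 0.0238 over 6 array measures). The split by poly-A level, set at the largest gap between arrays, is called the spike-in batch here; no label names it. With it as a block, a gene's within-batch value is the mean of the 5 treated animals minus control animal 4 alone, so that animal and the batch cannot be told apart. Its part in the results was not tested beyond these values. Hepatocyte markers (albumin, transthyretin and others) were at 14.06 to 14.17 on average on every array, near the top of the scale, and none of the 7 measured passed the test (0 also at an unadjusted p under 0.05).

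Jun was the only member whose groups did not overlap, and it was higher in the treated livers. Klf10 was lower, and no other member passed the test. Of the 10 members 2 were called by limma at an adjusted p under 0.05, 1 in each direction, where 20.3% of all genes were called, 9.02% higher and 11.3% lower. The members' share is therefore close to that of genes at large. Without adjustment 4 members (Jun, Klf10, Dusp1 and Atf3) had p under 0.05. The median log2 change was -0.10 over the members and 0.01 over all genes, with 3 members above 0 and 7 below. Tested singly against all probe sets, of which 18.7% were called, 1 of the 15 member probe sets passed, that of Klf10. The balance of calls over all genes depends on the scaling, since 44.4% of calls were higher on the deposited scale, 59.4% after quantile normalisation and 59.0% after median centring. Jun, Atf3 and Fos were above 0 and Klf10, Dusp1, Egr1, Junb, Klf6 and Fosb below 0 under all 3 of these, while Ier2 turned (-0.05 as deposited, 0.02 after quantile normalisation).

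**Figure D1:**
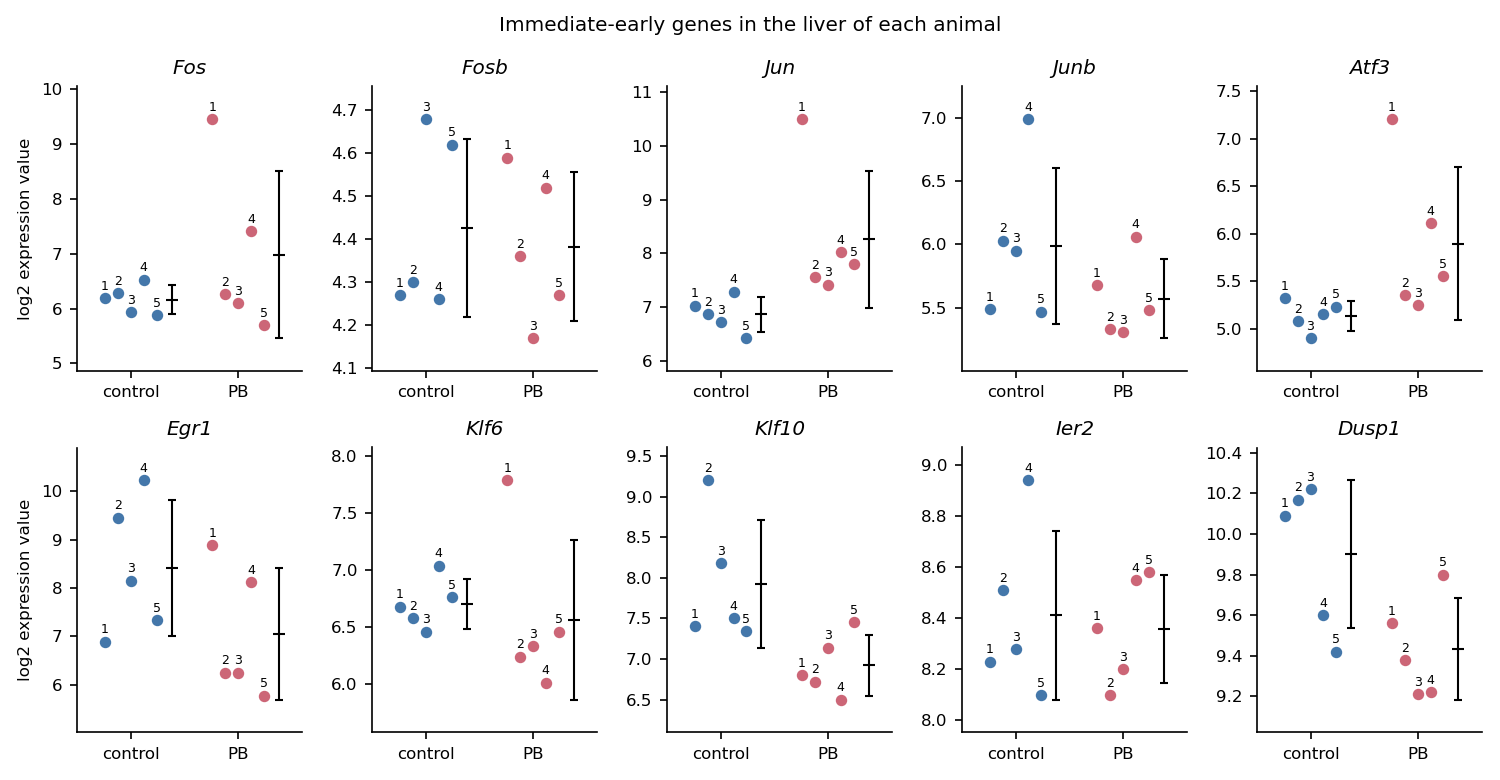
Log2 expression value (vertical axis, a separate range for each gene) of the 10 immediate-early genes in each animal, control in blue and phenobarbital (PB) in red; numbers are animals, and the bars give the mean and SD of the 5 animals. Phenobarbital animal 1 is at the top of the treated group for Fos (9.46), Jun (10.50), Atf3 (7.21) and Klf6 (7.79), and control animal 4 at the top of the controls for Egr1 (10.23) and Junb (6.99).

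Jun encodes the AP-1 subunit c-Jun. Its values in control animals 1 to 5 were 7.03, 6.87, 6.73, 7.29 and 6.43, and in treated animals 1 to 5 they were 10.50, 7.56, 7.42, 8.02 and 7.80. Each treated animal lay above each control, as was the case, in one direction or the other, for 12.9% of all genes, and treated animal 1 stood far above the other treated animals. The mean went from 6.87 ± 0.32 to 8.26 ± 1.27 (SD, n = 5 each), a log2 change of 1.39 ± 0.46 (SE), or 2.62-fold (limma adjusted p = 0.0496). Without treated animal 1 the change was 0.83 ± 0.16 (SE) with a limma adjusted p of 0.00718, in a fit that called 16.1% of genes. The call is close to the threshold: it was lost without control animal 1, 2, 3 or 5 or treated animal 2, 4 or 5, with adjusted p between 0.0522 and 0.0983. The within-batch value was 0.97 (adjusted p = 0.658), and control animal 4 at 7.29 was the highest control but still below the lowest treated animal at 7.42.

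A second Jun probe set gave the same order of groups. It read 6.56, 6.57, 6.36, 6.56 and 6.36 in control animals 1 to 5, and 9.31, 6.99, 6.91, 7.08 and 7.04 in the treated animals. The 4 treated animals other than the first lay between 6.91 and 7.08, above the highest control at 6.57. Its change was 0.98 ± 0.37 (SE, limma adjusted p = 0.081 over all probe sets), and 0.52 ± 0.08 (SE, adjusted p = 0.00243) without treated animal 1.

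Fos encodes c-Fos, the usual partner of c-Jun in AP-1. In control animals 1 to 5 it read 6.19, 6.28, 5.93, 6.53 and 5.88, and in treated animals 1 to 5 it read 9.46, 6.26, 6.10, 7.41 and 5.70. Treated animals 1 and 4 were above every control, while treated animals 2, 3 and 5 lay at 6.26 or lower, inside the control range or below it. The log2 change of 0.82 ± 0.54 (SE) did not pass (limma adjusted p = 0.300) and was 0.21 ± 0.27 without treated animal 1. The SD was 1.52 among treated animals and 0.27 among controls.

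Atf3 followed the same animals. Its values were 5.32, 5.08, 4.90, 5.15 and 5.23 in controls and 7.21, 5.35, 5.25, 6.11 and 5.55 in treated animals 1 to 5. Of the treated animals 4 of 5 exceeded the highest control, and treated animal 3 at 5.25 lay within the control range. The change was 0.76 ± 0.29 (SE, limma adjusted p = 0.083), 0.43 ± 0.15 without treated animal 1 (adjusted p = 0.0736) and 0.74 within the batch (adjusted p = 0.59). It passed without treated animal 3 (0.92, adjusted p = 0.0462).

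The other AP-1 subunits among the members did not pass the test. Junb, which can oppose c-Jun at its targets, read 5.49, 6.03, 5.95, 6.99 and 5.47 in controls and 5.68, 5.33, 5.31, 6.06 and 5.48 in treated animals, a change of -0.41 ± 0.25 (SE, limma adjusted p = 0.252). Control animal 4 stood above all other animals, and without it the change was -0.16. Within the batch, where that animal is the only control, Junb was called lower (-1.42, adjusted p = 0.0342), in a fit that called 0.786% of genes. Fosb read 4.26 to 4.68 in controls and 4.17 to 4.59 in treated animals, just above the lower quartile of the arrays (4.13 to 4.2), among the dim probe sets (change -0.04 ± 0.11 SE, limma adjusted p = 0.803).

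**Figure D2:**
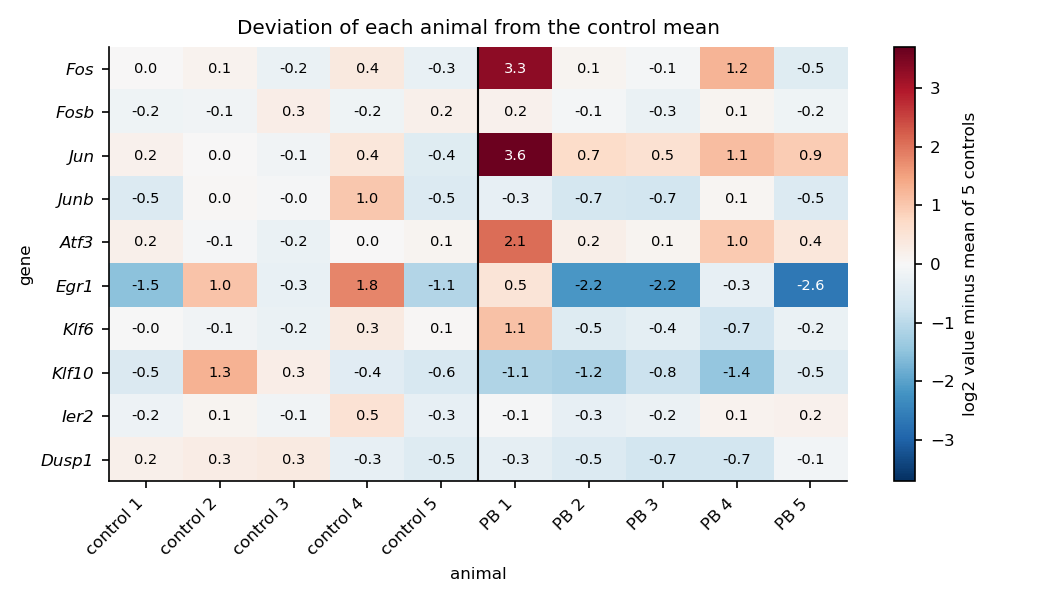
Log2 value of each immediate-early gene (rows) in each animal (columns) minus the mean of the 5 controls, with the difference printed in each cell; red is above the control mean, blue below, and PB marks phenobarbital. PB animal 1 is red for Fos, Jun, Atf3 and Klf6, the Jun row is above 0 in all PB animals, and the Klf10 and Dusp1 rows are below 0 in all PB animals.

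Egr1, the zinc finger factor first known from growth factor stimulation, had the widest spread among the controls of any member. Controls 1 to 5 read 6.89, 9.46, 8.15, 10.23 and 7.33, and treated animals 1 to 5 read 8.89, 6.25, 6.25, 8.12 and 5.77. Treated animals 2, 3 and 5 lay below every control, and treated animals 1 and 4 inside the control range. With SDs of 1.41 and 1.36 (n = 5 each), the change of -1.36 ± 0.69 (SE) did not pass (limma adjusted p = 0.179), and it ranged from -1.81 to -0.90 when 1 animal was left out. The within-batch value of -3.17 (adjusted p = 0.223) rests on control animal 4, the highest of all.

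Klf10, a TGF-beta-inducible repressor that also follows the clock in liver, was lower in the treated animals. Controls 1 to 5 read 7.40, 9.20, 8.18, 7.50 and 7.34, and treated animals 1 to 5 read 6.80, 6.72, 7.14, 6.50 and 7.45. Of the treated animals 4 of 5 lay below every control, with treated animal 5 at 7.45 among the lower controls and control animal 2 far above the others. The mean went from 7.92 ± 0.79 to 6.92 ± 0.37 (SD, n = 5), a log2 change of -1.0 ± 0.31 (SE, limma adjusted p = 0.0373). Without control animal 2 it was -0.68 ± 0.20 (adjusted p = 0.0448). The call was lost without control animal 3 or treated animal 1, 2 or 4 (adjusted p between 0.0693 and 0.086), after quantile normalisation (-0.91, adjusted p = 0.0508), and within the batch (-0.58, adjusted p = 0.692).

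Klf11, the closest relative of Klf10 on the lists, showed the same high control animal. It read 7.27, 8.88, 8.09, 7.21 and 7.41 in controls and 6.68, 7.06, 6.67, 7.31 and 6.59 in treated animals (change -0.91, limma adjusted p = 0.035). Several fasting-related genes were also highest among the controls in animal 2, with Angptl4 at 11.36 there against 9.22 to 10.56 in the other controls, and Pck1 at 13.41 against 12.34 to 13.09. G6pc and Pdk4 were not, at 12.97 and 8.46 in that animal against control maxima of 13.04 and 8.48. Of the lipogenic genes on the list, Srebf1 was at its control minimum there (10.87). Fasn was not, at 11.50 against a control minimum of 10.72. Of 10 measured fasting and feeding genes 4 were called lower and 1 higher (Fasn, 0.98, limma adjusted p = 0.0199). Over all genes 11.3% were called lower and 9.02% higher. The median of the list was -0.56 against 0.01 over all genes. The mean level of the listed genes was 10.91 in control animal 2, the highest of the controls (9.90 to 10.91), and 9.40 to 9.97 in the treated animals. The lowest control, at 9.90 and inside the treated range, was animal 4, the only control in the spike-in batch of the treated arrays. Since the list holds both fasting-related and lipogenic genes, its mean and median do not measure feeding state. The part of feeding state in the Klf10 difference was not tested.

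Klf6, a Kruppel-like factor first described as a core promoter binding protein, read 6.68, 6.58, 6.46, 7.04 and 6.76 in controls and 7.79, 6.24, 6.33, 6.01 and 6.46 in treated animals 1 to 5. Treated animal 1 was above every control, and the other treated animals lay at or below the lowest control, and the mean change was -0.14 ± 0.26 (SE, limma adjusted p = 0.744). Without treated animal 1 it was -0.44 ± 0.12 (SE, adjusted p = 0.0272). Of the other 4 probe sets 3 also had treated animal 1 as the highest of all animals, at 6.16, 6.70 and 6.31, and their changes without it were -0.36, -0.18 and -0.32 with adjusted p over all probe sets between 0.089 and 0.456. The fifth, at 2.81 to 3.32, lay below the lower quartile of every array.

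**Figure D3:**
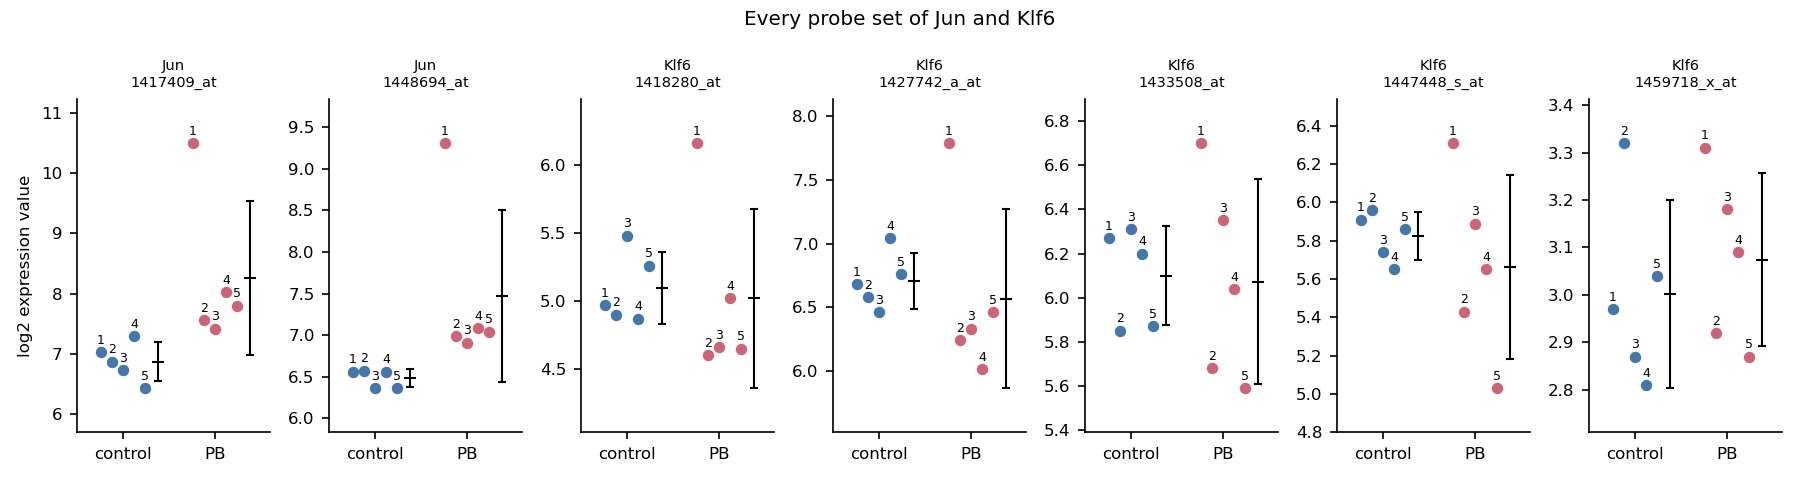
Log2 expression value (vertical axis, a separate range for each panel) of both Jun and all 5 Klf6 probe sets in each animal, control in blue and phenobarbital (PB) in red, with animal numbers and the mean and SD of 5 animals. PB animal 1 is the highest animal on 6 of the 7 probe sets, and the remaining PB animals lie above all controls on both Jun probe sets.

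Dusp1, the MAP kinase phosphatase, read 10.09, 10.17, 10.22, 9.60 and 9.42 in controls and 9.56, 9.38, 9.21, 9.22 and 9.80 in treated animals 1 to 5. Each treated animal was below the control mean of 9.90, and 3 of 5 were below every control, while control animals 4 and 5 lay among the treated. The change was -0.47 ± 0.16 (SE, limma adjusted p = 0.0595). It passed without control animal 4 (-0.54, adjusted p = 0.0342), without control animal 5 (-0.59, adjusted p = 0.0201) and without treated animal 5 (-0.56, adjusted p = 0.0362), and was -0.17 within the batch (adjusted p = 0.846). Ier2 stood at 8.10 to 8.94 in controls and 8.10 to 8.58 in treated animals, with the groups overlapping over nearly all of their range (change -0.05 ± 0.15 SE, limma adjusted p = 0.824).

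**Figure D4:**
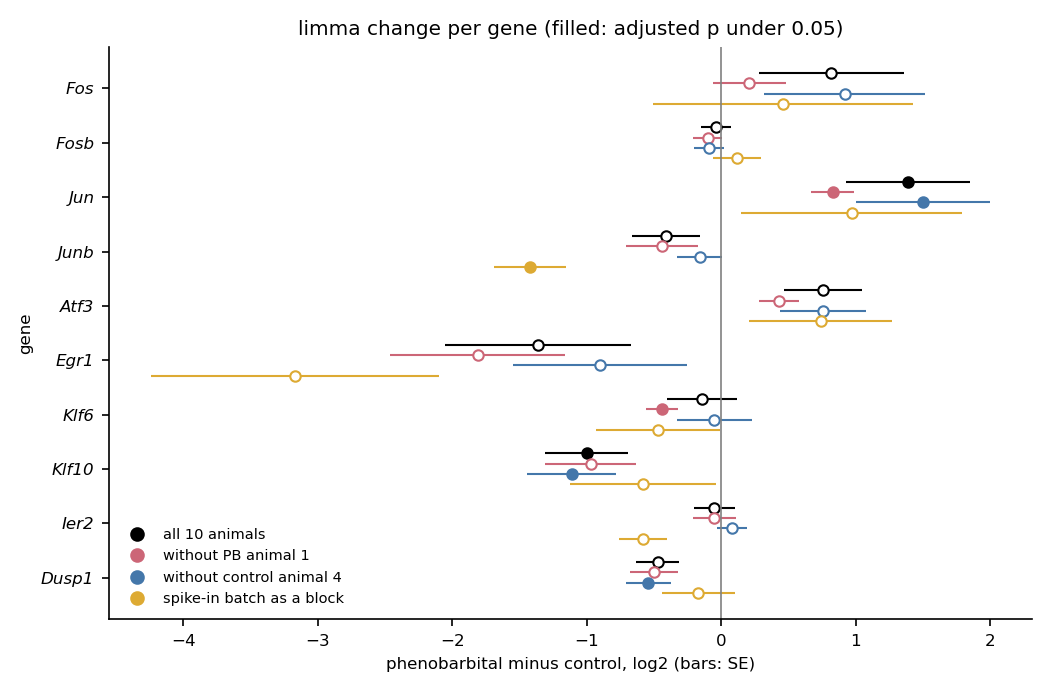
Phenobarbital minus control on the log2 scale (horizontal axis, bars are SE) for each immediate-early gene in 4 limma fits; filled points have an adjusted p under 0.05. Jun is above 0 in all 4 fits and filled in 3 of them, while Junb is filled only with the spike-in batch as a block.

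Treated animal 1 stood apart in several members at once. By its value minus the mean of the 4 other treated animals, Fos ranked 1st of 18193 genes (3.09), Jun 2nd (2.80), Egr1 4th (2.29), Atf3 12th (1.64) and Klf6 15th (1.53). Klf10 (-0.15), Ier2 (0.00), Junb (0.13) and Dusp1 (0.16) stood close to the other treated animals in it. Over all genes this array was the lone high animal of its group, by Dixon's criterion for 5 values, in 0.824% of genes and the lone low animal in 1.28%, against 0.467% to 0.715% and 0.319% to 0.511% for the other treated arrays. Its poly-A spike-in mean of 6.08 and Gapdh difference of -0.25 lay within the treated range. Among controls, animal 4 was the highest for 6 members (Fos, Jun, Junb, Egr1, Klf6 and Ier2), with Egr1 ranking 5th (2.27) and Junb 17th (1.26) of all genes by the difference from the other controls. Its array was the lone high animal of its group in 1.39% of genes, above the share of any other array, and the lone low animal in 0.737%. Members also ranked near the extremes in other animals. Egr1 was 1st from the lowest in control animal 1, 3rd from the lowest in control animal 5 and 7th from the highest in treated animal 4. Klf10 was 6th from the highest in control animal 2. These ranks use plain log2 differences, which favour genes that vary widely.

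Some members also varied together from animal to animal within the groups, and others did not. After each gene was centred on its group mean, the Pearson correlation over the 10 arrays was 0.94 for Fos with Jun, 0.94 for Fos with Atf3, 0.93 for Jun with Atf3 and 0.90 for Jun with Klf6. For Junb with Ier2 it was 0.89, for Junb with Egr1 0.82 and for Klf10 with Dusp1 0.63. Other pairs were near 0 or below, such as Fos with Dusp1 (-0.01), Fos with Klf10 (-0.21) and Fosb with Ier2 (-0.29). Without treated animal 1 the correlation of Jun with Klf6 was 0.16 and that of Jun with Atf3 0.55. That of Fos with Jun was then 0.62 and that of Fos with Atf3 0.71, while those of Junb with Ier2 and Egr1 were 0.90 and 0.91. Control animal 4 had the highest value of all animals for Junb, Ier2 and Egr1, and no correlation was computed without it. These points share their arrays and describe 10 animals, so no test is attached.

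The genes most like the members' average pattern over the 10 arrays, among genes with a mean over 6, were Bud23, Slc17a2, Slc5a3, Epha4, Crem and Hspb1, with correlations of 0.942 down to 0.873. Crem is a cAMP-responsive bZIP factor and Hspb1 a small heat shock protein. Single members were searched in the same way, and correlations of similar size came up for each. For Egr1, Klf10 and Dusp1 the nearest genes were Lama5 (0.908), Nhsl1 (0.937) and Yars2 (0.945). Nhsl1 and Yars2 varied little, from 8.01 to 8.18 and from 8.06 to 8.31 over all animals. Each match is the highest of a search over all other genes with a mean over 6, on only 10 arrays. The search for Jun on its own was a choice made after its values were seen. Its 6 nearest were Dnaja4 (0.948), Dnajb1 (0.948), Zfand2a (0.924), Hspb1 (0.909), Crtc3 (0.907) and Lama3 (0.897). The first 4 are known to respond to heat or proteotoxic stress, while Crtc3 encodes a CREB coactivator and Lama3 a laminin chain. Like Jun, the first 4 and also Crtc3 had their highest value of all animals in treated animal 1. Lama3 did not, at 7.37 in that animal against a control maximum of 7.74. Dnaja4 was at 8.36 there against 6.78 to 7.15 in the other treated animals, and Dnajb1 at 11.91 against 9.95 to 10.07. That array weighs heavily in these correlations, which were not computed without it.

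Heat shock genes, which encode chaperones that refold proteins, were higher in the treated livers, and treated animal 1 was the highest of all animals in 10 of the 11 measured. Of these 11, 8 were called higher and none lower (10 had an unadjusted p under 0.05), and the median was 0.48. Over all genes 9.02% were called higher. Dnajb1 read 9.43, 9.19, 8.94, 9.15 and 9.12 in controls and 11.91, 10.07, 9.98, 9.95 and 10.03 in treated animals 1 to 5 (change 1.22, limma adjusted p = 0.0161). Hspa1a read 7.01 to 8.04 in controls, 11.50 in treated animal 1 and 9.0 to 9.37 in the other treated animals (change 2.23, adjusted p = 0.00339), although its probe set may not separate it from its near-identical copy Hspa1b. Bag3, a co-chaperone, read 9.68 to 10.20 in controls, 11.66 in treated animal 1 and 10.72 to 11.46 in the others (change 1.11, adjusted p = 0.00154). For these 3 genes each treated animal was above each control, as for Jun. The groups did not overlap, in one direction or the other, for 12.9% of all genes. Not every heat shock gene was so, since Hspb1 ran from 9.02 to 10.49 in controls and from 9.10 to 11.46 in treated animals. The mean level of the list was 11.01 to 11.33 in controls and 11.56 to 12.53 in treated animals. Control animal 4, the only control in the spike-in batch of the treated arrays, was the highest control at 11.33. This list was counted on the deposited scale only, and the part of the batch in it was not tested.

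**Figure D5:**
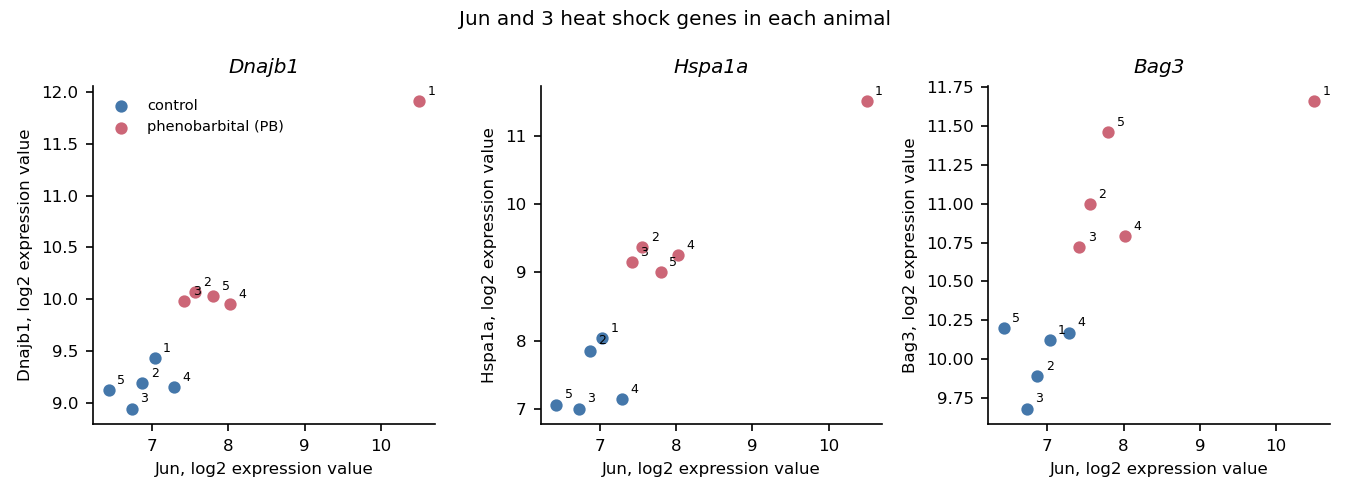
Log2 expression value of Jun (horizontal axis) against those of the heat shock genes Dnajb1, Hspa1a and Bag3 (vertical axes) in each animal, control in blue and phenobarbital (PB) in red, numbered by animal. PB animal 1 is at the top right in each panel (10.50 for Jun with 11.91, 11.50 and 11.66), and the other PB animals lie above and to the right of the controls.

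Of 21 other AP-1 and related bZIP subunits measured, 2 were called higher and 2 lower, with a median of -0.02. This is close to the share over all genes, of which 20.3% were called. Atf4, the integrated stress response factor that can induce Atf3, rose by 0.34 (limma adjusted p = 0.0322), from 10.51 to 10.76 in controls to 10.81 to 11.38 in treated animals, and its highest value was that of treated animal 1. Batf rose by 0.29 (adjusted p = 0.0311), and Cebpd and Atf2 fell, by 0.48 and 0.25 (adjusted p = 0.0268 and 0.0409). The remaining Fos and Jun relatives, Fosl1, Fosl2 and Jund, had changes of 0.01, -0.02 and 0.19 (limma adjusted p = 0.959, 0.952 and 0.0607).

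Other immediate-early regulators were called lower more often than higher, 10 against 3 of 50 measured, with a median of -0.15. Over all genes 11.3% were called lower and 9.02% higher. That balance turned with the scaling, and this list was counted on the deposited scale only. Klf9, a glucocorticoid- and thyroid-responsive factor, fell by 0.98 (limma adjusted p = 0.00512), Zfp36l2, an RNA-destabilising protein, by 0.74 (adjusted p = 0.00619), and Nab2, a corepressor induced by and acting on Egr1, by 0.62 (adjusted p = 0.00361). Nab2 went from 6.66 ± 0.18 to 6.05 ± 0.23 (SD, n = 5), while Egr1 itself did not pass. Gadd45b, a stress-induced gene and a direct target of the constitutive androstane receptor, rose by 1.28 (adjusted p = 0.000832), with 7.69 to 8.71 in treated animals against 6.50 to 7.29 in controls.

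Among 29 measured genes of the kinase relay above the members, 11 were called lower and 2 higher, with a median of -0.19. Over all genes 11.3% were called lower and 9.02% higher, on the same deposited scale. The list held 37 genes, and those not measured are not analysed here. Nras, a Ras GTPase, fell by 0.37, the growth factor receptor Met by 0.46, its ligand Hgf by 0.58, the feedback inhibitor Spry2 by 0.45 and the ternary complex factor Elk3 by 0.38 (limma adjusted p between 0.0044 and 0.0317). Mapk8, which encodes JNK1, the kinase that phosphorylates c-Jun, was higher, with a change of 0.28 and no overlap between 7.79 to 8.05 in controls and 8.08 to 8.21 in treated animals (adjusted p = 0.0136). Mapk9, which encodes the related c-Jun kinase JNK2, was lower by about as much, with a change of -0.27 and no overlap between 8.71 to 8.93 in controls and 8.46 to 8.66 in treated animals (adjusted p = 0.0138). Map2k4, a kinase that activates both, was also lower, with a change of -0.24 (adjusted p = 0.0273). Srf itself had a change of 0.13 (adjusted p = 0.175).

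Among 11 MAP kinase phosphatases other than Dusp1, 1 was called higher and none lower (3 had an unadjusted p under 0.05). Over all genes 9.02% were called higher and 11.3% lower. The called phosphatase was Dusp6, which is ERK-specific and went from 9.37 ± 0.23 to 10.01 ± 0.19 (SD, n = 5). It rose by 0.64 (limma adjusted p = 0.00328), with 8.97 to 9.53 in controls and 9.80 to 10.26 in treated animals. Control animal 4 had the lowest Dusp6 of all animals, and treated animal 1 the highest.

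Genes that respond to glucocorticoids, which are released in stress and handling, gave 1 called higher and 1 lower of 11 measured. The median was -0.25, and the share called is close to the 20.3% over all genes. The steroid-responsive Fkbp5 had a change of 0.07 and Tsc22d3 one of -0.25 (limma adjusted p = 0.77 and 0.245), while Lcn2 rose by 0.81 and the receptor gene Nr3c1 fell by 0.26 (adjusted p = 0.0033 and 0.0136). The mean level of the list was 8.57 to 9.13 in controls and 8.56 to 8.76 in treated animals, with 8.65 in treated animal 1.

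Because these are whole livers, fewer cells of a type and less RNA per cell cannot be told apart. Stellate cell markers were called lower in 6 of 12 measured and sinusoidal endothelial markers in 6 of 11. None was called higher in either, and the medians were -0.34 and -0.30. Over all genes 11.3% were called lower. Hand2 fell by 0.85, Lrat by 0.86 and Fcgr2b by 0.57 (limma adjusted p between 0.00256 and 0.011). The summed linear signal was 8816 to 9780 in controls and 5832 to 8096 in treated animals for stellate markers, and 5263 to 6745 and 4134 to 5255 for endothelial markers. Macrophage markers (0 higher and 1 lower of 12), neutrophil and monocyte markers (1 and 0 of 9), T and NK cell markers (1 and 0 of 9), B and plasma cell markers (0 and 1 of 7), cholangiocyte markers (1 and 0 of 6) and erythroid markers (1 and 1 of 4) had at most 1 call in each direction. Treated animal 1 was at 4471 for endothelial and 6995 for stellate markers, inside the treated range of both. Immediate-early genes are expressed in all of these cells, and the part of cell makeup in the member values was not tested.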

How the data were processed

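Liver RNA of 10 mice was labelled with biotin from an oligo(dT) primer and hybridised to Affymetrix 3' arrays, 1 per animal, per the labels' protocols; this reads the 3' end of a message. The authors deposited log2 values for 45101 probe sets, from 2.34 to 15.13 with 2 decimals; GCOS is named in the submitters' processing notes, and the method of summarising and normalising is not stated in those sources. The log2 scale was read from the values, which were used as deposited. Depth does not apply to arrays, and their number limits the precision. Of the probe sets 64 were controls, 34945 had 1 gene symbol in the platform annotation, 932 carried more than 1 and 9160 were unnamed. For each of 18193 genes the brightest probe set (by mean over all arrays) was used.

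Phenobarbital was compared with control across all genes with R 4.3.3 and limma 3.58.1 (linear model, moderated variance, two-sided, Benjamini-Hochberg, adjusted p under 0.05), and across all probe sets in the same way. A "called" gene passed this. Lists were described by counts and medians, with older symbols matched through the RefSeq gene table of GRCm38.p6. The members and lists were chosen with earlier results of these data known. Named were all members, from each list the called genes of greatest change, 5 at most (2 of lowest p where none was called), and the 6 genes closest to the members' pattern; Jund, Fosl1, Fosl2, Srf, Mapk8, Mapk9, Map2k4, G6pc, Pdk4, Srebf1, Fkbp5 and Tsc22d3 were named after their values were seen, and not every gene the rule allows is named. Promoters came from RefSeq; the half-site and the jun1 element were added after the first matches were seen. The fit was tested on simulated data. Equal replicate numbers do not pair animals in the labels; they were tried as a block.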

Additional observations from a re-analysis of the deposited data

Results flagged for a closer look

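Within groups of 5 animals, the gap at the high or the low end, whichever was larger, was compared with the whole range. Dixon's criterion (limit 0.71 for 5 values) was used in 30 groups of member probe sets. Chance would mark about 1 in 20 of independent groups, but these share their animals, and Jun and Klf6 have several probe sets. The limit was exceeded in 4 of the 30, always by phenobarbital animal 1 on the high side. Over all genes that animal was the lone high one of its group in 0.824%. The gap took 0.805 of the treated range for Jun on the probe set used for the gene and 0.929 on the other. For Klf6 it took 0.747 on the probe set used for the gene and 0.731 on a dimmer one. For Fos, Atf3 and Egr1 the same animal was also the highest treated animal, without exceeding the criterion. The cause was not tested.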

How the results depend on the processing

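The number of genes called was 143 with the spike-in batch as a block and 128 with the spike-in mean as a covariate, against 3692, and 175 and 168 probe sets against 8425; with 1 animal left out it ran from 2431 to 4610 genes and from 5309 to 10879 probe sets. Members called numbered 2 (Jun and Klf10), 1 after quantile normalisation (Jun), among genes with a mean of at least 6 (Klf10 of 7 members kept) and with the mean of probe sets (Klf10), 1 with the batch as a block (Junb), and 0 by limma with trend and robust variance or the spike-in covariate, where 3 and 2 members had an unadjusted p under 0.05. With 1 animal left out they ran from 0 (without control animal 3 or phenobarbital animal 2 or 4, with 3, 4 and 5 members at an unadjusted p under 0.05) to 3. With array weights Klf10 and Dusp1 were called, and Jun was not (1.18, adjusted p = 0.06). With the replicate number as a block 3 members were called (Jun, Klf10 and Atf3) and 3664 genes. Same-numbered animals correlated between -0.024 and 0.116 in their deviations from the group means, and 2 of 5 treated animals correlated best with their own number, so the numbers are not read as pairs. Without both control animal 4 and phenobarbital animal 1, a setting chosen after seeing the data, Jun (0.93), Klf6 (-0.36) and Dusp1 (-0.57) were called and Klf10 was not (-1.08, adjusted p = 0.0516). Over all settings Jun ranged from 0.83 to 1.6, Klf10 from -1.15 to -0.38 and Atf3 from 0.43 to 0.92, with their direction kept; the cause of the lost calls was not tested.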

Other observations

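Beyond the members, the genes that stood highest in phenobarbital animal 1 relative to the other treated animals included Onecut1, a liver transcription factor (10.21 against 7.11 to 9.67 in the other treated animals and 7.03 to 8.92 in controls), and the secreted matrix proteins Ccn2 and Ccn1, which are serum-response targets (8.55 against 6.53 to 7.77, and 7.81 against 6.25 to 7.12). For Ccn2 and Ccn1 the controls reached 8.58 and 7.73, and neither passed the test (changes of -0.44 and -0.15, limma adjusted p = 0.345 and 0.74). Myc, an immediate-early gene of growth, was not high in phenobarbital animal 1: it ran from 6.0 to 9.24 in treated animals, with 6.61 in animal 1, and from 5.86 to 8.90 in controls, where animal 4 was the highest as for Egr1 and Junb. Nr4a1, a nuclear receptor induced by cyclic AMP and stress, was at 6.75 to 6.97 in treated animals and 6.68 to 6.96 in controls, with 6.97 in phenobarbital animal 1, so its level there was not apart from the rest. These genes were chosen after their values were seen.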
